A study of Mus musculus with 6 samples.

Results

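The 9 genes described here encode transcription factors of the enteroendocrine lineage, the hormone-producing cells scattered through the intestinal epithelium: Neurog3, Neurod1, Pax4, Insm1, Rfx6, Pax6, Isl1, Foxa1 and Foxa2. They were taken by gene symbol from the deposited tables, where each has 1 row among 23699 rows for 23235 symbols. RNA from the first 2 cm of the intestine after the stomach was sequenced as 3 control and 3 mutant libraries from adult mice aged 6 weeks, of mixed background. The labels do not say whether each library is 1 mouse. Control 1 and control 2 were Nkx2.2flox/+; Rosa26Tomato/+, and control 3 was Nkx2.2flox/+ without the Tomato reporter. All mutants were Nkx2.2flox/TN; Villin-Cre/+; Rosa26Tomato/+. Villin-Cre is a recombinase transgene active in intestinal epithelium, and TN is, from what is known of the study, an allele of the homeobox gene Nkx2-2 with a mutated tinman domain. The floxed allele was thus present in both groups, while the mutants also carried Cre and the TN allele. Their separate parts in a difference cannot be told apart, and the TN allele was present in every tissue of the mutants, nerve and muscle of the wall included.

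Enteroendocrine cells arise from crypt progenitors that switch on Neurog3 for a short time. Neurog3, a basic helix-loop-helix factor, activates further factors, among them Neurod1, Pax4, Insm1 and Rfx6, and later homeobox factors such as Pax6 and Isl1 act in the choice and upkeep of hormone-producing subtypes. Foxa1 and Foxa2 are forkhead factors that open chromatin and are also active in other epithelial cells of the gut. Nkx2-2 acts downstream of Neurog3 in the same lineage. The study's title names intestine-specific TN mutants, and the comparison is of duodenal RNA between these genotypes as a whole.

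Reads on genes, computed from the deposited confidence intervals and summed over all gene rows, ran from 14.21 to 25.91 M in the 6 libraries (M, mega). Reads outside these genes are not in the sums, so the full depth is not known. The samples are pieces of the whole wall, so fewer cells of a type and less RNA per cell cannot be told apart. Control 3 and mutant 3 were female by Xist and the Y-linked genes, and the other 4 libraries were male. Pancreatic acinar transcripts, summed over 10 genes, ran from 28.9 to 11578 FPKM in controls and from 2813 to 12600 FPKM in mutants (FPKM, fragments per kilobase of transcript, scaled to the depth of the library). Control 3 and mutant 3 were the highest. The epithelial list (Epcam, Vil1, Cdx2 and 4 more) gave sums of 3642 to 4148 FPKM in controls and 3785 to 4153 FPKM in mutants. All 10 genes of the enteroendocrine product list, such as Chga, Cck and Gip, had a value above 0 in every library, and these lists fit the labelled tissue.

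Sequence is shown for 4 members. The first set is the stretch of 250 bases before the transcript start of the 3 members that were lower in all mutants than in all controls, Neurod1, Rfx6 and Foxa1, so that the letters known factors of the pathway bind can be seen. The sequences come from RefSeq on GRCm38.p6, where 7 of the 9 members had an entry, and lie at chr2:79456637-79456886 for Neurod1, chr10:51685268-51685517 for Rfx6 and chr12:57546112-57546361 for Foxa1, on the minus, plus and minus strand. Capitals mark CANNTG, the E-box bound by basic helix-loop-helix factors, and AAGTG, the core of the site bound by Nkx2 homeodomains, each searched on both strands with no overlap between them in these 3 windows.
Neurod1: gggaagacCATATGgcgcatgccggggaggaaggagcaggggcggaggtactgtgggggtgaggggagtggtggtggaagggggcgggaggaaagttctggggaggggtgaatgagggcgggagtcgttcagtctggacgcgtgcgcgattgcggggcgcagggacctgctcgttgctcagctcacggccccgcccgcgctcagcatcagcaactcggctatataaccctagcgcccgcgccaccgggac
Rfx6: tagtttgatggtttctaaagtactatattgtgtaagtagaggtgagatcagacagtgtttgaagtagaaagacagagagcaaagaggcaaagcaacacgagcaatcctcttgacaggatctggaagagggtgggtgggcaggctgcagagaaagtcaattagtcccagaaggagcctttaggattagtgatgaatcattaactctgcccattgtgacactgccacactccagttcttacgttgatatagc
Foxa1: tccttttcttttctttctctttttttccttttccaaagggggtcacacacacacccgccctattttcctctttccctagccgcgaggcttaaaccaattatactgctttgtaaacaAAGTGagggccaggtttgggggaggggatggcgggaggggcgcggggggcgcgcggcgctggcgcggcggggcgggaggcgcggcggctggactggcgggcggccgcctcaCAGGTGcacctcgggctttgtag
Neurod1 had 1 E-box, which began 242 bases before the start. Foxa1 had 1 E-box at 23 bases and 1 AAGTG match at 134 bases before the start, and Rfx6 had neither. Among all 32851 promoter windows of this length in the table, 66.2% held CANNTG and 40.7% held AAGTG, so such matches are common. A match describes letters only, and the absence of one says nothing about a factor.

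The last sequence is an exon of Pax6 that separates transcripts of the gene. It is 42 bases or 14 codons long, lies at mm9 chr2:105524908-105524949 on the plus strand, and is fully coding in 9 of the 10 annotated transcripts that hold it. It is known as the alternative exon of the paired domain, a DNA-binding part of the protein.
No letters are in capitals here.
Pax6 exon: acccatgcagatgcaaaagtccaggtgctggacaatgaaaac

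Neurog3 (protein coding, mm9 chr10:61595838-61597511, plus strand), the progenitor factor, had nearly equal group means. Its level was 1.65, 2.17 and 2.77 FPKM in the controls, in order of number, against 2.11, 1.84 and 2.54 in the mutants. The groups overlapped in full, with every mutant inside the range of the controls. Means were 2.20 ± 0.557 FPKM in controls and 2.16 ± 0.354 FPKM in mutants (SD, n = 3 each). The log2 fold change was −0.0057 (95% interval −0.51 to 0.50, adjusted p = 0.998 in limma), on a scale of log2(FPKM + 0.1), mutant minus control. The interval spans folds from 0.702 to 1.41, so differences within it were not excluded with these libraries. It is no limit of detection, since larger differences could also stay uncalled after adjustment over all genes. Its sign turned with trimmed mean scaling (0.030) and under quantile normalization (0.077). Behind these values stood 31 to 73 reads a library.

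Within each group the library with the most pancreatic transcripts also had the highest Neurog3. These were control 3 at 2.77 FPKM and mutant 3 at 2.54 FPKM, both female. Control 1, with the least pancreatic RNA, had the lowest Neurog3 value of all 6. The order did not hold throughout: mutant 2 had a larger pancreatic sum than mutant 1 (2885 against 2813 FPKM) but less Neurog3 (1.84 against 2.11 FPKM). With the pancreatic sum as a covariate, added after the data were seen, the log2 fold change of Neurog3 was −0.28 (adjusted p = 0.816 in limma). In the male libraries only it was 0.052. Whether pancreatic RNA or sex takes part in the spread of Neurog3 was not tested.

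**Figure D1:**
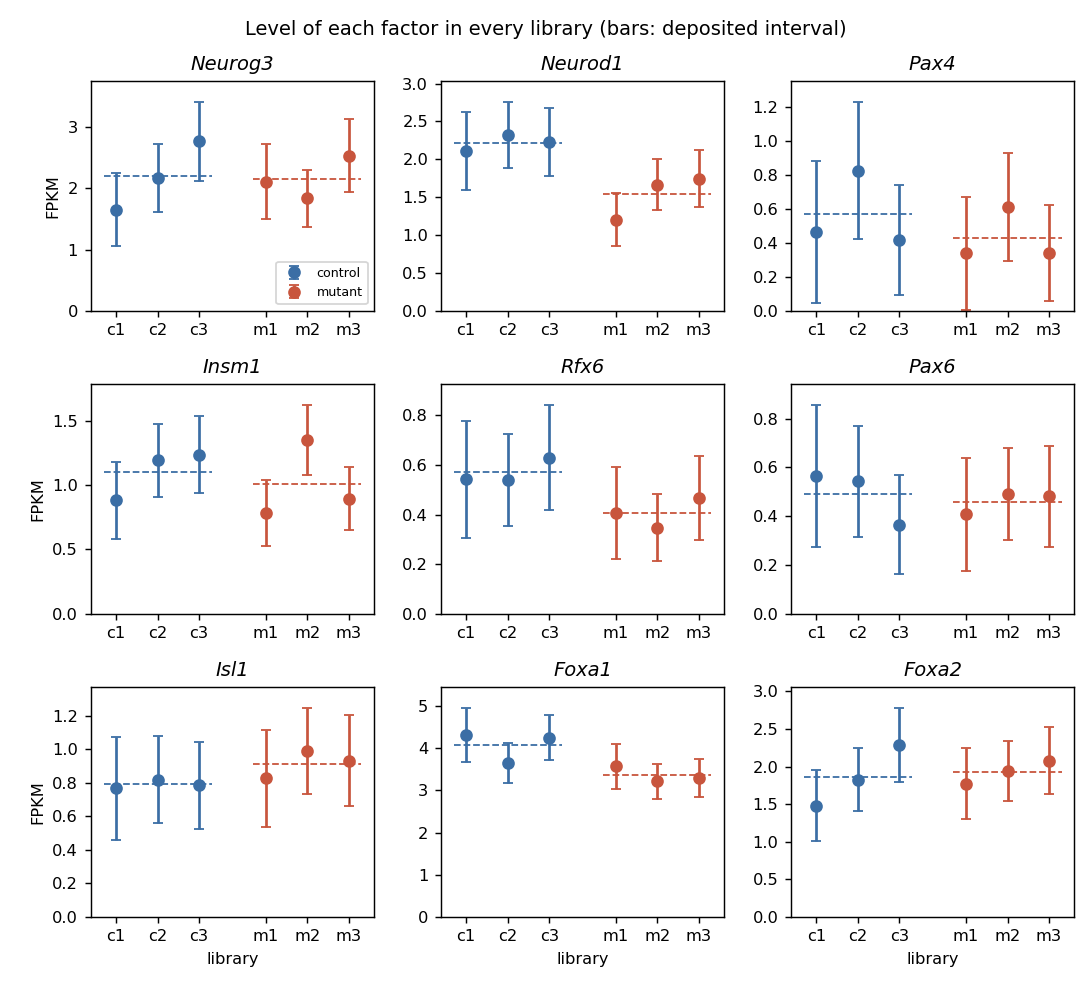
FPKM of each of the 9 factors (vertical axes, from 0) in control libraries c1 to c3 (blue) and mutant libraries m1 to m3 (red), with the deposited interval as a bar and the group mean as a dashed line. The 3 mutant points lie below the 3 control points for Neurod1, Rfx6 and Foxa1 and above them for Isl1, while the intervals of single libraries are wide for Pax4, Rfx6 and Pax6.

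Neurod1 (protein coding, mm9 chr2:79292678-79296908, minus strand), a basic helix-loop-helix factor that follows Neurog3 and is kept on in many hormone cells, had the log2 fold change farthest from 0 among the members with all 6 libraries, though without mutant 1 Rfx6 (−0.41) was farther from 0 than Neurod1 (−0.36). It was measured at 2.11, 2.32 and 2.23 FPKM in the controls, in order of number, against 1.20, 1.66 and 1.75 in the mutants. All mutants were lower than all controls, with mutant 1 the lowest. Means were 2.22 ± 0.104 FPKM in controls and 1.54 ± 0.293 FPKM in mutants (SD, n = 3 each), the mutant mean being 0.692 of the control mean. The log2 fold change was −0.52 (SE 0.17, 95% interval −0.91 to −0.13). It did not pass over all genes (adjusted p = 0.786 in limma). It stayed negative in all 19 alternatives, between −0.61 and −0.35. The authors' deposited table gives Neurod1 a log2 fold of −0.48 with an adjusted p of 1.

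Beside the pancreatic sums the 3 control values of Neurod1 lay within 2.11 to 2.32 FPKM while those sums ran from 28.9 to 11578 FPKM. In the mutants Neurod1 was 1.20, 1.66 and 1.75 FPKM at sums of 2813, 2885 and 12600 FPKM, the same order. The part of pancreatic RNA in the Neurod1 values was not tested. In the male libraries only the log2 fold change was −0.61, and with the pancreatic covariate it was −0.57. The ratio of Neurod1 to Neurog3 within a library, chosen after the values were seen, was 1.28, 1.07 and 0.806 in controls and 0.570, 0.906 and 0.688 in mutants. The ratios of the groups overlapped between control 3 and mutant 2.

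**Figure D2:**
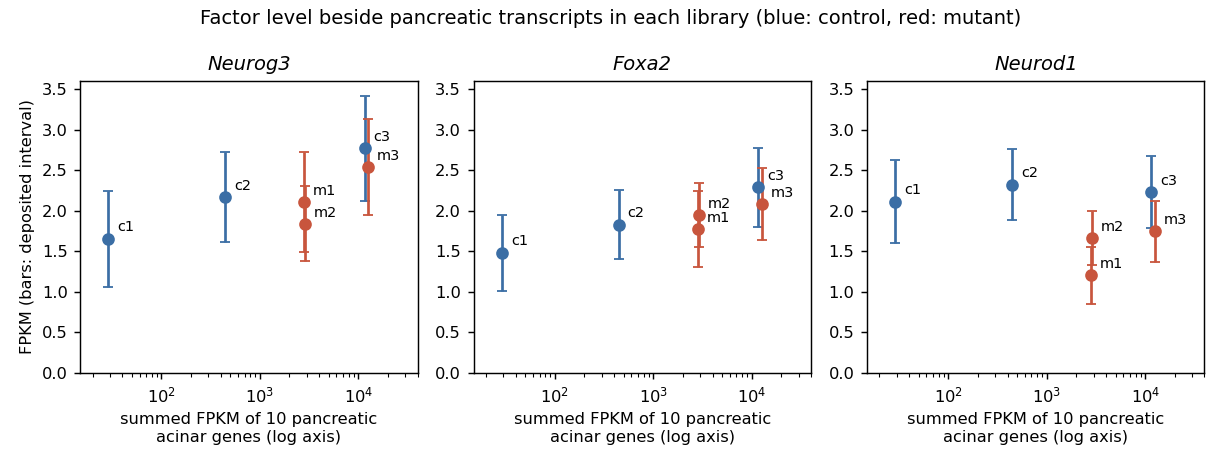
FPKM of Neurog3, Foxa2 and Neurod1 (vertical axes) against the summed FPKM of 10 pancreatic acinar genes (horizontal log axis), 1 point a library with its deposited interval, controls in blue and mutants in red. Control 3 and mutant 3, at sums of 11578 and 12600 FPKM, have the highest Neurog3 and Foxa2, while the Neurod1 controls stay between 2.11 and 2.32 FPKM over the whole axis.

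Rfx6 (protein coding, mm9 chr10:51397562-51450235, plus strand), a winged-helix factor needed for endocrine cells downstream of Neurog3, was the other early factor whose groups did not overlap. It had 0.542, 0.540 and 0.630 FPKM in the controls, in order of number, against 0.405, 0.347 and 0.466 in the mutants. The highest mutant lay 0.0735 FPKM under the lowest control, where 1 computed read is worth about 0.0133 to 0.0259 FPKM. Means were 0.571 ± 0.0514 and 0.406 ± 0.0597 FPKM (SD, n = 3 each), and the log2 fold change was −0.41 (SE 0.19, 95% interval −0.86 to 0.04, adjusted p = 0.786 in limma). The sign was negative in all 18 alternatives that could be fitted for it. With quantile normalization the value was −0.30 and the groups overlapped, and at a pseudocount of 1 it was −0.16.

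Pax4, a paired homeobox factor of early endocrine differentiation, was the most thinly measured member. It had 0.462, 0.828 and 0.417 FPKM in the controls, in order of number, against 0.338, 0.611 and 0.339 in the mutants. These values rested on about 4 to 17 computed reads a library. The groups overlapped, with control 2 and mutant 2 high and 2 of 3 mutants under every control. Each of the 3 mutants was lower than the control of the same number, though the labels do not say that these numbers pair libraries. With the numbers as a block, a pairing drawn from the data, the adjusted p was 0.638 in limma. The log2 fold change was −0.33 with a 95% interval from −1.08 to 0.42, or folds from 0.473 to 1.34 (adjusted p = 0.834 in limma). Leaving out 1 library moved it between −0.56 without mutant 2 and −0.07 without control 2. That range shows how far the value rested on single libraries and is no limit of detection. At this depth differences within the 95% interval were not excluded.

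Insm1, a zinc-finger factor of endocrine and neuroendocrine cells, also overlapped between the groups. It had 0.883, 1.19 and 1.24 FPKM in the controls, in order of number, against 0.785, 1.35 and 0.896 in the mutants. The mutants held both the lowest and the highest of the 6 values. Means were 1.105 ± 0.193 and 1.01 ± 0.2997 FPKM (SD, n = 3 each), with a log2 fold change of −0.14 (95% interval −0.70 to 0.42, adjusted p = 0.918 in limma). Insm1 lies 0.953 megabases from Nkx2-2 on chromosome 2, and Foxa2 lies 0.849 megabases from it on the same chromosome, so both lie near the altered locus.

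Pax6, which acts in hormone gene expression, had 0.565, 0.544 and 0.366 FPKM in the controls, in order of number, against 0.408, 0.491 and 0.481 in the mutants. Its mutants all lay inside the control range. The log2 fold change was −0.06 (95% interval −0.58 to 0.45, adjusted p = 0.971 in limma), and it was positive with quantile normalization (0.054) and with the pancreatic covariate (0.10).

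Isl1 (protein coding, mm9 chr13:117088478-117099896, minus strand), a LIM homeobox factor of hormone cells that enteric neurons also use, was the member whose mutants all lay above the controls. It had 0.766, 0.817 and 0.784 FPKM in the controls, in order of number, against 0.825, 0.987 and 0.930 in the mutants. The gap between mutant 1 and control 2 was 0.00745 FPKM, less than the 0.0258 FPKM that 1 read is worth in mutant 1. Means were 0.789 ± 0.0261 and 0.914 ± 0.0825 FPKM (SD, n = 3 each), and the log2 fold change was 0.19 (SE 0.15, 95% interval −0.17 to 0.55, adjusted p = 0.808 in limma). The spread of Isl1 between libraries of a group was 7.19% of its mean, under the 16.1% that counting alone would give. The ratio of Isl1 to Neurod1 within a library, chosen after the values were seen, was 0.363, 0.352 and 0.352 in controls and 0.686, 0.594 and 0.533 in mutants. These ratios could not overlap, since all mutants were above all controls in Isl1 and below them in Neurod1. The ratio is therefore no separate result.

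Enteric neurons could contribute Isl1 RNA. Their 10 markers summed to 33.6 to 47.4 FPKM in controls and 31.6 to 35.5 FPKM in mutants. Of the 9 that were tested, 8 had a negative log2 fold change (median −0.16), against 61.3% of all genes. None of their markers was at 0 in any library. Vip was the largest part of each sum, at 14.7 to 28.0 FPKM in controls and 15.7 to 17.9 FPKM in mutants. The sums of the groups overlapped, with control 2 (33.6 FPKM) below mutant 2 (35.5 FPKM). Its part in the Isl1 values was not tested.

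Foxa1 (protein coding, mm9 chr12:58641618-58647108, minus strand) was the most abundant member and the best measured, with 178 to 251 reads a library. It had 4.31, 3.66 and 4.25 FPKM in the controls, in order of number, against 3.57, 3.22 and 3.29 in the mutants. All mutants were lower than all controls, although mutant 1 was only 0.0870 FPKM below control 2. Means were 4.07 ± 0.363 and 3.36 ± 0.185 FPKM (SD, n = 3 each), and the log2 fold change was −0.27 (SE 0.11, 95% interval −0.53 to −0.0073, adjusted p = 0.786 in limma). It was negative in all 19 alternatives, from −0.34 to −0.19, and the groups overlapped with trimmed mean scaling and with quantile normalization.

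Foxa2 overlapped between the groups. It had 1.48, 1.83 and 2.29 FPKM in the controls, in order of number, against 1.77, 1.94 and 2.08 in the mutants. Every mutant lay inside the control range, and control 3 and mutant 3 were again the highest of their groups. The log2 fold change was 0.07 (95% interval −0.35 to 0.49, adjusted p = 0.958 in limma), and it turned to −0.15 with the pancreatic covariate. Goblet and Paneth cells also use Foxa factors. The goblet list, of which 5 of 6 genes had a row, summed to 4970 to 5603 FPKM in controls and 5208 to 5709 FPKM in mutants. The Paneth list summed to 12432 to 16949 FPKM in controls and 12815 to 18078 FPKM in mutants, and both lists overlapped. Their part in the Foxa values was not tested.

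No member was called. In limma 0 of 9 passed an adjusted p of 0.05, where 0% of all 15864 tested genes did. Members with an unadjusted p under 0.05 were 2 lower ones, Neurod1 and Foxa1, against 4.32% of all genes, and 0 higher, against 1.49%, or 2 against 5.81% in either direction. Limma voom on the implied reads passed 0 and had the same 2 at that level. Neurod1 alone remained there with trimmed mean scaling or under quantile normalization, and Foxa1 alone without control 2. Rfx6 joined both with no filter and with limma without a variance trend, at unadjusted p-values of 0.0315 and 0.0140, and again none passed after adjustment. Over all genes the split was 685 lower and 237 higher, against 466 and 437 after trimmed mean scaling or 430 and 361 under quantile normalization. The authors' deposited table gives an adjusted p of 1 for all 9 members.

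By separation of the libraries, 3 of 9 members were lower in all mutants than in all controls, against 9.92% of all tested genes, and 1 of 9 was higher, against 3.13%. A negative log2 fold change was found in 7 of 9 members, against 61.3% of all genes. The median was −0.14 over the members and −0.05 over all genes, and the first turned to 0.0052 without mutant 1. With quantile normalization 2 members remained apart, Neurod1 below, against 6.51% of all genes, and Isl1 above, against 4.78%. These counts describe 9 genes chosen with earlier results known and are no test of the group.

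**Figure D3:**
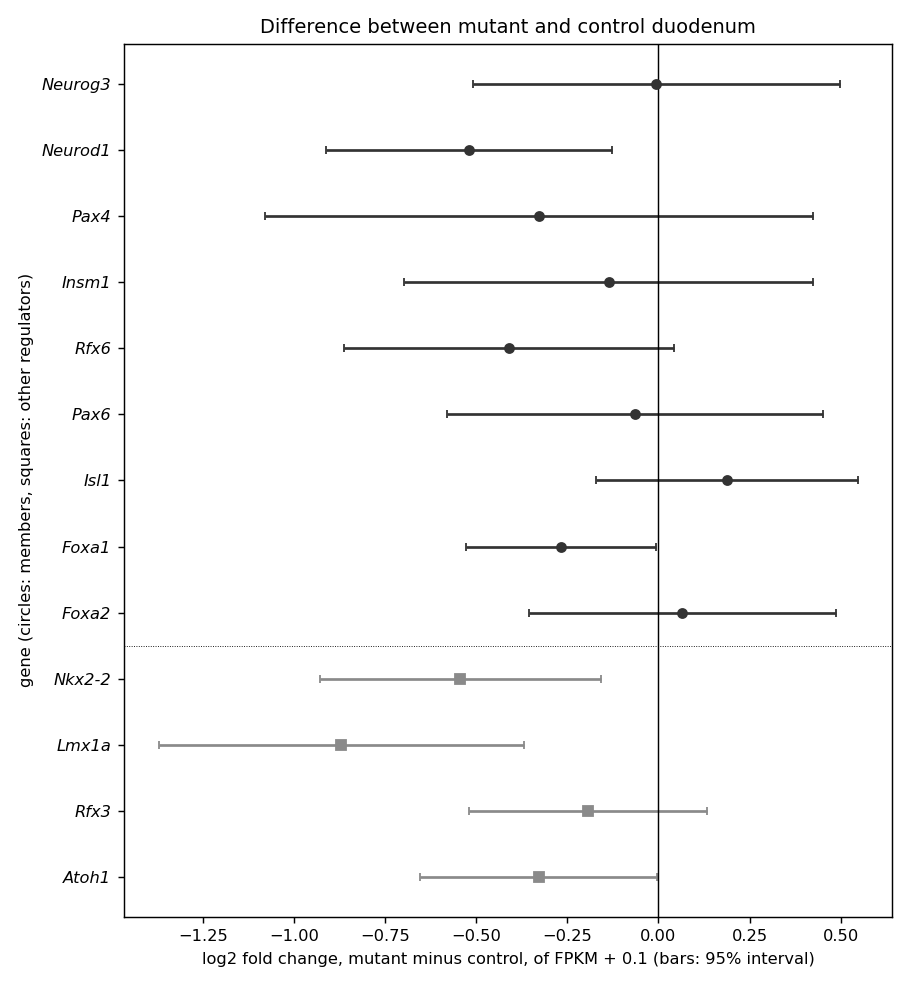
Log2 fold change of FPKM + 0.1, mutant minus control (horizontal axis, bars are 95% intervals), for the 9 members (circles) and the 4 other regulators named in the text (squares). The intervals of Neurod1 and Foxa1 lie below 0 among the members, and Lmx1a, at −0.87, lies farthest from 0 among the squares.

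The order of the members' levels per transcript length in controls was Foxa1, Neurod1, Neurog3, Foxa2, Insm1, Isl1, Rfx6, Pax4 and Pax6. The control ranges of Neurod1, Neurog3 and Foxa2 overlapped from one to the next, as did those of Rfx6, Pax4 and Pax6. Foxa1 stood above Neurod1 in 6 of 6 libraries. Neurod1 stood above Neurog3 in 2 of 6, which were control 1 and control 2. Pax4, Rfx6, Pax6 and Isl1 stayed under 1 FPKM in every library.

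The spread between libraries can be set against counting error. Within groups Neurog3 varied by 21.4% of its mean and Insm1 by 23.8%, against 13.3% and 13.1% expected from their read numbers. Neurod1 (11.7% against 11.0%) and Foxa1 (7.76% against 6.92%) varied about as much as counting gives. Rfx6 (11.4% against 19.5%) and Pax6 (17.6% against 23.9%) varied less, as Isl1 did. The counting figures of Rfx6 and Pax6 are approximate, since both genes have several transcripts.

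Transcripts were assigned unevenly for the 3 members with several RefSeq models, while the other 6 have 1 model each. For Rfx6, NM_177306 had 0.339 and 0.347 FPKM in control 1 and control 3, or 62.6% and 55.1% of the gene. It took under 1% in control 2 and in all 3 mutants. NM_001159389, which is 369 bases longer, carried the rest. The log2 fold change of NM_177306 was −1.43 (SE 0.69, adjusted p = 0.853 in limma over all transcripts). That of NM_001159389 was 0.26 (adjusted p = 0.907 in limma), and 1 of 3 controls had almost none of NM_177306, as the mutants did.

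For Pax6, NM_001244198 is 42 bases longer than NM_001244201, the length of the exon printed above, though the deposited tables do not list exons. NM_001244198 took 99.997% of the gene in control 1 and 72.9% in mutant 3, and under 1% in the other 4 libraries, which were assigned mainly to NM_001244201. For Pax4, NM_011038 took nearly all of the level in control 2 and mutant 2, and NM_001159926 took at least 97.2% in the other 4. With about 12 to 27 computed reads for Pax6 and 4 to 17 for Pax4, such all-or-none assignments came in both groups. Of 12 member transcripts tested, 0 passed in limma, where 0.0454% of all 19827 transcripts did. Only the single model of Neurod1 had an unadjusted p under 0.05, against 4.92% of all transcripts.

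**Figure D4:**
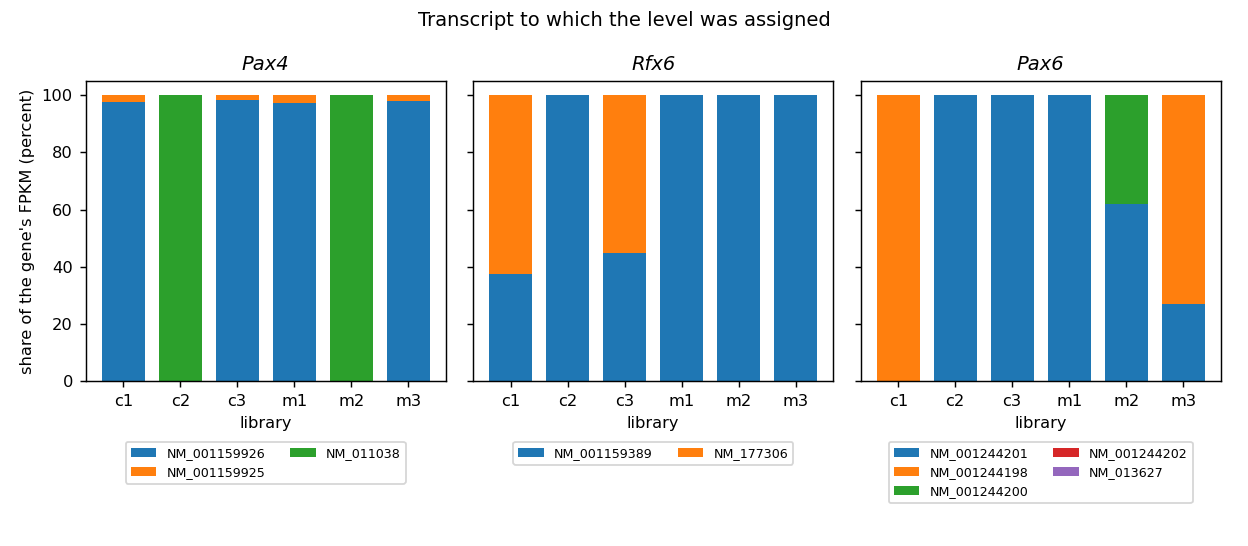
Share of each gene's FPKM (percent, vertical axis) assigned to each RefSeq transcript of Pax4, Rfx6 and Pax6 in libraries c1 to m3, as stacked bars. NM_177306 of Rfx6 appears only in c1 and c3, and the main model of Pax4 and Pax6 changes between libraries of both groups.

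Of 19 other regulators of the lineage, 17 were tested and 0 passed in limma, where 0% of all genes did. At an unadjusted p under 0.05 in limma there were 3 lower ones, against 4.32% of all genes. Of the 17, 14 had a negative log2 fold change, against 61.3% of all genes, and 3 a positive one. Those named here, all lower, are therefore not a picture of the whole list. Nkx2-2, the targeted gene, had 1.00, 1.03 and 1.27 FPKM in controls and 0.748, 0.744 and 0.666 FPKM in mutants, a log2 fold change of −0.54 (SE 0.16, adjusted p = 0.786 in limma). Its mutants were all lower. The part of the gene covered by the reads is not known, so this checks the labels only in part. Lmx1a, a LIM homeobox factor of serotonin cells, had 0.680, 0.696 and 0.596 FPKM in controls and 0.267, 0.409 and 0.278 FPKM in mutants (log2 −0.87, SE 0.21, adjusted p = 0.786 in limma).

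Atoh1, the secretory lineage factor, and Rfx3 are named after their values were seen. Atoh1 had a log2 fold change of −0.33 and was the third of the lower regulators at that level, and Rfx3 (−0.19) was the remaining one whose mutants all lay below the controls. Regulators apart in that direction numbered 3 of 17, against 9.92% of all genes. Mafa and Nkx6-1 were below the filter, and Nkx6-1 was listed at 0 in every library.

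The other cell lists beside these values were as follows. Of 10 enteroendocrine products, 4 were lower and 2 higher in all mutants than in all controls, against 9.92% and 3.13% of all genes. None was called, as over all genes, and their sums were 580.2 to 683 FPKM in controls and 660.4 to 793 FPKM in mutants. Smooth muscle markers had sums of 425 to 550.2 FPKM in controls and lower ones, 330.4 to 411 FPKM, in mutants. In limma 0 of these 6 genes was called, as over all genes. For 5 of 6 all mutants were below all controls, against 9.92% of all genes. The stomach list summed to 20.8 to 512 FPKM in controls and 77.7 to 180 FPKM in mutants, and the groups overlapped. The islet list summed to 0.878 to 6.28 and 3.95 to 7.84 FPKM, and 2 of its 6 genes, G6pc2 and Slc30a8, were at 0 in all libraries. The islet hormone genes were detected unevenly. Iapp had 0.878 to 2.73 FPKM in controls and 2.96 to 4.08 FPKM in mutants, all mutants above all controls, against 3.13% of all genes. No other islet gene was apart. Ins2 was at 0 in control 1 and reached 2.95 and 3.82 FPKM in control 3 and mutant 3. Ins1 was at 0 in control 1 and mutant 1, with means of 0.204 FPKM in controls and 0.0916 FPKM in mutants. Ppy was above 0 only in control 3 (0.187 FPKM) and mutant 3 (0.679 FPKM). The part of these cells in the members' values was not tested.

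By the smallest root mean square difference of centred log2 values over the 6 libraries, among 12570 genes with a mean of at least 1 FPKM, the patterns most like Neurod1 were those of Dhdh (0.0755) and Chrm2 (0.0793). Those most like Neurog3 were Dynll1 (0.0473) and Fam118a (0.0585), and for Insm1 they were Slc25a42 (0.0624) and AI646023 (0.0688). Foxa1 was nearest to Bambi (0.0259) and Casd1 (0.0408), and Foxa2 to Farsa (0.0356) and Peli1 (0.0521). The members' own spread on this measure was 0.306 for Neurod1, 0.242 for Neurog3, 0.266 for Insm1, 0.160 for Foxa1 and 0.186 for Foxa2. These are descriptions over 6 libraries that differ in depth and in pancreatic RNA.

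**Figure D5:**
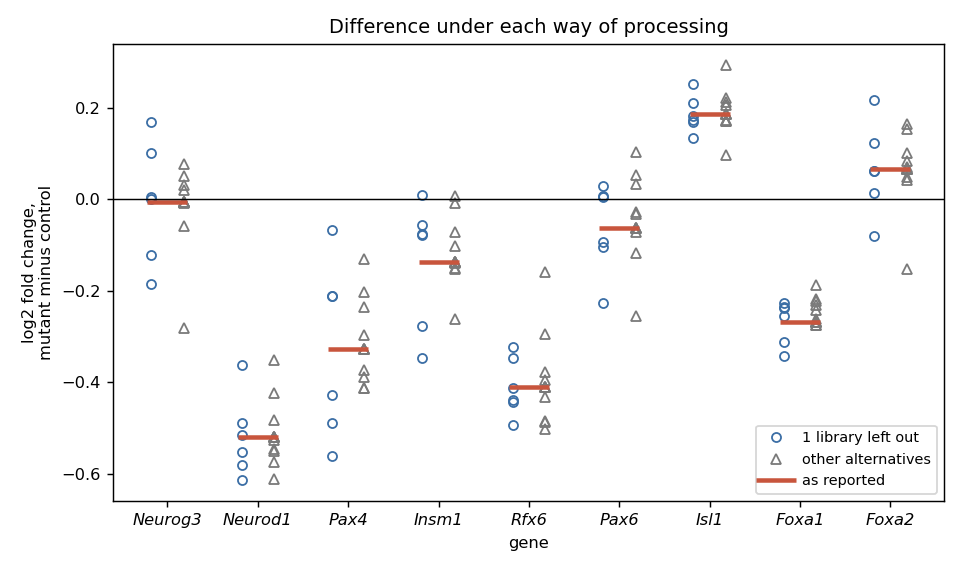
Log2 fold change of each member, mutant minus control (vertical axis), as reported (red bar), with 1 library left out (blue circles) and under the other alternatives (grey triangles). Neurod1, Pax4, Rfx6 and Foxa1 stay below 0 and Isl1 stays above 0 throughout, while Neurog3, Insm1, Pax6 and Foxa2 cross 0.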

How the data were processed

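The tools listed in the submitters' processing notes are TopHat, Cufflinks, DESeq and CASAVA 1.8.2, with the build mm9. No other version or the read counter is named. Per the labels' protocols, RNA with an integrity number above 8 went into TruSeq libraries. The deposited gene and transcript tables hold FPKM with an interval, and the transcript tables also hold coverage, a signal that was not used. The authors' comparison table holds normalized mean counts, their fold as a ratio and as log2, and p-values. Read numbers were computed from the width of each FPKM interval, taken as Poisson error. For 87.8% to 88.2% of the single-transcript genes checked they came within 0.05 of a whole number. Genes with several transcripts were not checked. The read numbers of Pax4, Rfx6 and Pax6 were not all whole (16.7 for Pax4 in control 2). They are therefore approximate, and the intervals of these genes may hold more than counting error. The intervals do not cover the spread between libraries.

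Groups were tested on log2(FPKM + 0.1) for the 15864 rows with a mean of at least 0.1 FPKM with limma 3.58.1 (R 4.3.3, variance trend), checked on simulated data and adjusted by Benjamini-Hochberg over all rows, with a threshold of 0.05. The labels give no mouse, litter or date, so p-values measure the spread between libraries. The reported tests were fitted without pairs, except where a block is named. Same-numbered control and mutant libraries deviated together (correlations of 0.106, 0.207 and 0.389), so for that block alone the numbers were taken to pair samples. This pairing comes from the data and not from the labels: control 1 correlated more with mutant 2 (0.127) than with mutant 1, and control 3 and mutant 3 share sex and the highest pancreatic sums, whose part in the correlation was not tested. Named were all members, the 3 other regulators with the smallest p (Nkx2-2 among them; 1 is not reported here), and the 2 nearest genes of each member at 1 FPKM or more. Positions are from GENCODE on mm9. The members and lists were chosen with earlier results of these data known.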

Additional observations from a re-analysis of the deposited data

How the results depend on the processing

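No member was called under any of 19 alternatives, and Neurod1, Pax4, Rfx6, Foxa1 and Isl1 kept their signs in all that could be fitted. Pax4, Rfx6, Pax6 and Isl1 had no value at a minimum mean of 1 FPKM. The replicate block gave 2 called genes in place of 0 over all genes and changed no other call, Neurod1 having an adjusted p of 0.606 there in limma. The sex covariate, added after seeing the data, gave 1 called gene, and leaving out 1 library gave 0 to 3, with 2 without control 2 or mutant 2 and 3 without mutant 1. Members whose groups did not overlap numbered 4 as reported (13.1% of all genes), 3 with trimmed mean scaling (12.8%), 2 with quantile normalization (11.3%) and 5 in male libraries only (33.8%). With 1 library left out they numbered 4 to 5 (19.4% to 27.8%), Pax6 joining without control 3 and Pax4 without mutant 2. The members' median log2 fold change ran from −0.24 to 0.0052 with 1 library left out.

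Signs turned where values were near 0. Neurog3 was 0.030 with trimmed mean scaling, 0.077 with quantile normalization, 0.019 with library quality weights and 0.052 in male libraries only. Pax6 was 0.054 with quantile normalization, 0.034 with voom on implied reads and 0.10 with the pancreatic covariate, which gave Foxa2 −0.15, and Insm1 was 0.0066 in male libraries only. With 1 library left out the ranges were −0.19 to 0.17 for Neurog3, −0.23 to 0.029 for Pax6, −0.35 to 0.0099 for Insm1 and −0.081 to 0.22 for Foxa2, and the cause was not tested. At about 4 to 17 computed reads a library for Pax4 and 12 to 27 for Pax6, both approximate, depth limits what could be seen.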
